A study of Mus musculus with 6 samples.

Results

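Cardiac transcription factor loci are the genomic regions around Gata4, Nkx2-5, Tbx5, Tbx20, Hand2, Isl1 and Mef2c. They were chosen as 7 fixed windows in the mouse build mm9, 405 kb in all and up to 170 kb each, and every listed peak that overlapped a window by at least 1 bp was a member. This gave 23 of the 38760 peaks in the 6 lists: 13 of 18185 H3K4me3 peaks from 6TCF-treated cells, 9 of 17168 H3K4me3 peaks from untreated cells, 1 of 740 peaks from untreated input, and none of the 821 and 1242 H3K27me3 peaks or the 604 treated input peaks. The names are those given with the windows. No gene annotation of mm9 was used here, so a peak is placed within a window and not at an exon, intron or promoter.

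The study mapped histone marks by chromatin immunoprecipitation and sequencing (ChIP-seq) in C57BL/6 mouse embryonic fibroblasts (MEFs), primary connective-tissue cells grown from embryos, to see what a chemical combination named 6TCF does to their chromatin. One group was treated with 6TCF and sampled on day 6, and the other was an untreated control of the same day. The growth protocol, given alike for all samples, moved the cells from serum medium to a medium with more serum and basic fibroblast growth factor, so the controls may carry that medium change too. The labels do not name the compounds in 6TCF or say how many embryos a culture came from. H3K4me3, H3K27me3 and input DNA had 1 library per condition, so no difference below has a replicate check or a test. Sequencing depth was unknown, and it can change both whether a peak is listed and how wide it is. For the libraries titled H3K4me3 and H3K27me3 the antibody field names H3K4me2 and H3K4me1, and the titles and extraction protocol were followed. Markers of fibroblasts, of cardiac muscle and of other cells could not be placed in mm9, so the cell type was not checked here.

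The 7 genes encode DNA-binding proteins of the heart's core regulatory network, which bind together at enhancers of cardiac muscle genes and switch on each other's genes. Forced expression of GATA4, MEF2C and TBX5, often with HAND2, turns fibroblasts towards cardiomyocyte-like cells. Several of them also work outside the heart, HAND2 and TBX5 in limb mesenchyme and ISL1 in motor neurons. In cells that do not use such genes, their CpG-rich promoters often carry H3K27me3, the mark of Polycomb repressive complexes, with or without H3K4me3, the mark of active or poised promoters. H3K4me3 is placed mainly where the DNA is rich in CpG dinucleotides.

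RefSeq promoter entries were found for 5 of the 7 genes, Nkx2-5, Tbx20, Hand2, Isl1 and Mef2c. The 250 bases upstream of the start are shown because they differ in the sequence feature that H3K4me3 follows, with each CG dinucleotide in capitals. They come from build GRCm38.p6 and were not placed on the mm9 peaks. Mef2c has 3 entries, and the one with the most CG dinucleotides is printed.
Nkx2-5 (GRCm38.p6, chr17:26841566-26841815, minus strand): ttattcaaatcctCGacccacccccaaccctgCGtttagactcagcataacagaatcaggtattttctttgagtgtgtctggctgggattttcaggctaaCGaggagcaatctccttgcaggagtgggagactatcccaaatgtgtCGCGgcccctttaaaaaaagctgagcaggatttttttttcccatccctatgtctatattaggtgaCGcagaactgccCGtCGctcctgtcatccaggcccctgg
Tbx20 (GRCm38.p6, chr9:24774304-24774553, minus strand): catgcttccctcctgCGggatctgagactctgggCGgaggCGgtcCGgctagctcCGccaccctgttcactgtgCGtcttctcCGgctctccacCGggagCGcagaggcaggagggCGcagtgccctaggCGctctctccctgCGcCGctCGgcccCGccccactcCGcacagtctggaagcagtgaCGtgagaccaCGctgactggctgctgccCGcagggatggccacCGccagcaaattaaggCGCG
Hand2 (GRCm38.p6, chr8:57320733-57320982, plus strand): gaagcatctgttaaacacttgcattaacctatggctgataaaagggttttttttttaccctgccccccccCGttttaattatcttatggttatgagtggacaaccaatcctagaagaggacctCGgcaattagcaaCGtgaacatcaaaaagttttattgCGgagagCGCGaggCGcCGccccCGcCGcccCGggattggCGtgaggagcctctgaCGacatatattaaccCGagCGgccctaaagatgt
Isl1 (GRCm38.p6, chr13:116309689-116309938, minus strand): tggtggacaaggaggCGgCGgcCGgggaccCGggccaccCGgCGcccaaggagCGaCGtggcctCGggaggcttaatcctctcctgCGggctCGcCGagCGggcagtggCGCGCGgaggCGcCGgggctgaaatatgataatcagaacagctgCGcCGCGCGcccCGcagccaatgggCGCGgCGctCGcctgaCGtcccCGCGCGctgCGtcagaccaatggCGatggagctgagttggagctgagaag
Mef2c (GRCm38.p6, chr13:83523406-83523655, plus strand): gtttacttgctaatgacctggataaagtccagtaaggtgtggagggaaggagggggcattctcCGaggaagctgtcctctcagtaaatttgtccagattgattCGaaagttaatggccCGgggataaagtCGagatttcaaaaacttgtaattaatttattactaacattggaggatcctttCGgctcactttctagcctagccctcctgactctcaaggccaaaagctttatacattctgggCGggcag
The Isl1 sequence held 33 CG dinucleotides, more than 96.0% of the 32841 promoters in the table, whose median was 6. Tbx20 held 22 and Hand2 15, more than 85.2% and 72.7% of promoters. Nkx2-5 held 8, more than 57.0%, and the printed Mef2c sequence held 6, with 1 and 4 in the other Mef2c entries. By this count Isl1 and Tbx20 were above the upper quartile of 16 and Hand2 just below it, while Nkx2-5 and Mef2c were near or below the middle. Relative to the CG number expected from the C and G content, Isl1, Hand2 and Tbx20 were above 96.4%, 94.0% and 77.0% of promoters. Nkx2-5 was above 61.8% and the printed Mef2c sequence above 58.5%, with 38.1% and 22.1% for the other Mef2c entries. All 7 loci had a listed H3K4me3 peak in treated cells, so in that list presence could not be compared by CG content. In untreated cells Isl1 and Tbx20 had 2 peaks each and Hand2 had 1. Nkx2-5 had 0, while Mef2c, with the fewest CG dinucleotides of the 5, had 2. A relation of peaks to CG content was not tested.

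H3K4me3 peaks were listed at all 7 loci in 6TCF-treated cells and at 5 in untreated cells, with Tbx5 and Nkx2-5 listed in treated cells only. Peaks covered 28094 bp of the windows in treated and 17690 bp in untreated cells, a ratio of 1.59, against 1.02 for the whole lists, which covered 40.6 and 40.0 Mb. The covered length was larger in treated cells at Gata4, Tbx5, Nkx2-5, Isl1 and Hand2, and smaller at Tbx20 and Mef2c. Of the 13 treated peaks 5 (38.5%) overlapped no untreated peak, against 10.2% of all treated peaks. Of the 9 untreated peaks 1 overlapped no treated peak, against 4.73% of all untreated peaks and 3.72% of those over 1 to 2 kb, its width class. A treated and an untreated H3K4me3 peak were paired when each was the only overlap of the other. Of the 8 pairs 7 were wider in treated cells, against 46.8% of all 16153 pairs, and 1 was wider in untreated cells, against 53.1%. Peaks of a locus share their chromatin and are not replicates, and these shares describe 1 library each.

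**Figure D1:**
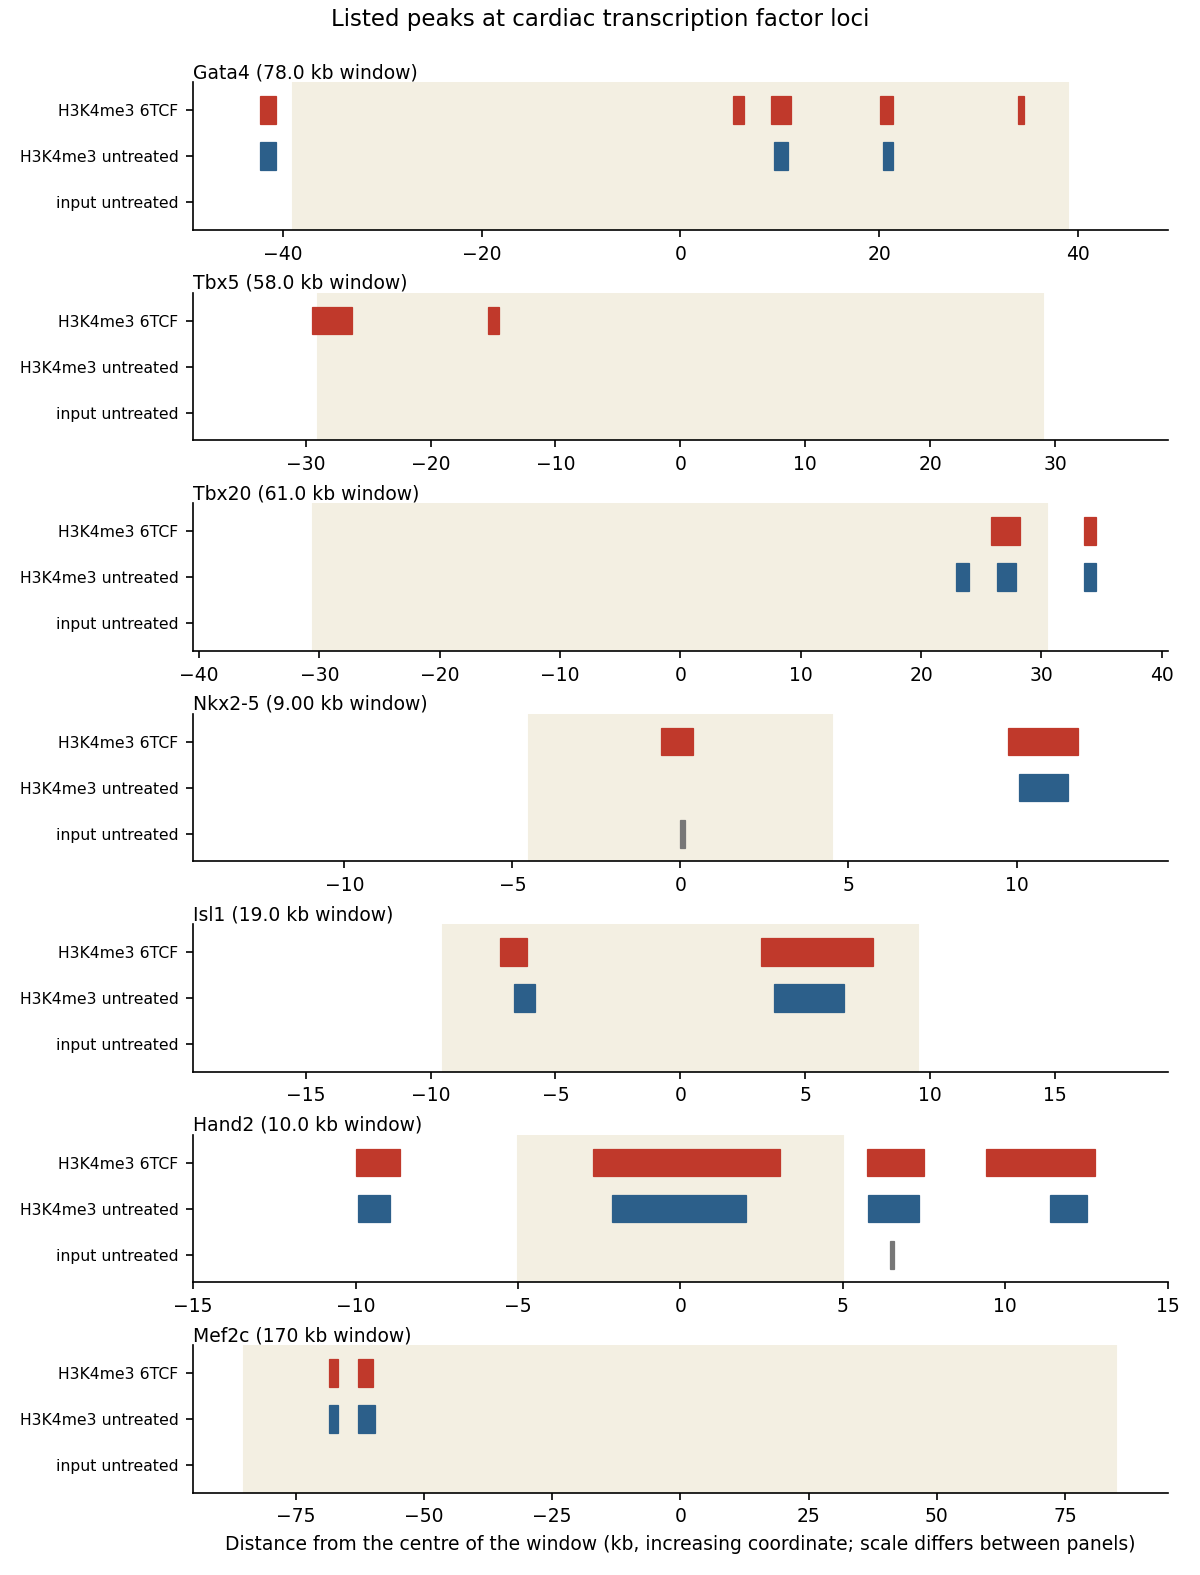
Peaks listed at each locus, drawn to scale as bars along the distance from the centre of the window in kb, with 1 row each for H3K4me3 in 6TCF-treated cells, H3K4me3 in untreated cells and untreated input. The shaded span is the window and the white margins are 10 kb of flank; Tbx5 and Nkx2-5 have treated peaks only inside the window, and the input peak at Nkx2-5 lies within the treated peak.

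Gata4 encodes a zinc-finger factor that binds GATA motifs and is needed for early heart tube formation. Its window on chromosome 14, 63815000 to 63893000, held 4 H3K4me3 peaks in treated and 2 in untreated cells. The pair at 63863141 to 63865118 was 1978 bp with 6TCF and 1364 bp without, 1.45-fold wider, and the treated peak reached 308 bp and 306 bp further at its low and high ends. The pair at 63874101 to 63875405 was 1305 and 973 bp, 1.34-fold wider, with most of the difference, 270 of 332 bp, at the low end. Both untreated peaks therefore lay wholly inside their treated partners. The treated-only peaks lay on either side of these pairs: 1190 bp at 63859242 to 63860431 and 683 bp at 63887898 to 63888580. Their distances to the nearest untreated peak were 3.02 and 12.6 kb. Covered length was 5156 bp with 6TCF and 2337 bp without, a ratio of 2.21. The next peak pair outside the window, 1.62 kb below it, was nearly equal in width, at 1660 and 1592 bp.

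Tbx5 encodes a T-box factor of the left ventricle, the conduction system and the forelimb, and RefSeq orders it between Tbx3 and Rbm19. On chromosome 5, the window from 120281000 to 120339000 held 2 treated H3K4me3 peaks and no untreated one. The first was 3199 bp wide, at 120280525 to 120283723, and crossed the low end of the window. The second, 880 bp, lay at 120294596 to 120295475. The nearest untreated H3K4me3 peak was 144 kb from the first and 158 kb from the second, and none lay within 50 kb of the window. Another treated-only peak, of 1321 bp, lay 26.4 kb below the window. Of all 1854 treated-only peaks 33 (1.78%) were wider than the 3199 bp peak, and the median was 863 bp. Among treated peaks over 2 to 6 kb, the width class that holds it, 0.774% had no untreated partner. For the 880 bp peak the share of its class is larger, as 51.1% of treated peaks up to 1 kb had none.

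Tbx20 encodes a T-box factor that acts as activator and repressor in heart chambers and valves. Its window on chromosome 9, 24521000 to 24582000, held 1 treated and 2 untreated H3K4me3 peaks, all near the high end. RefSeq has this gene on the minus strand in GRCm38, and its start was not placed on these peaks. The shared peak at 24577296 to 24579732 was 2437 bp with 6TCF and 1542 bp without, 1.58-fold wider, and the treated peak reached 514 and 381 bp further at its low and high ends. An untreated-only peak of 1049 bp, at 24574412 to 24575460, lay 1.84 kb below the treated peak. This was the one peak at the 7 loci listed in untreated cells alone, and it made the covered length nearly equal, at 2437 bp treated and 2591 bp untreated. The pair 3.08 kb above the window differed little, at 988 and 943 bp.

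**Figure D2:**
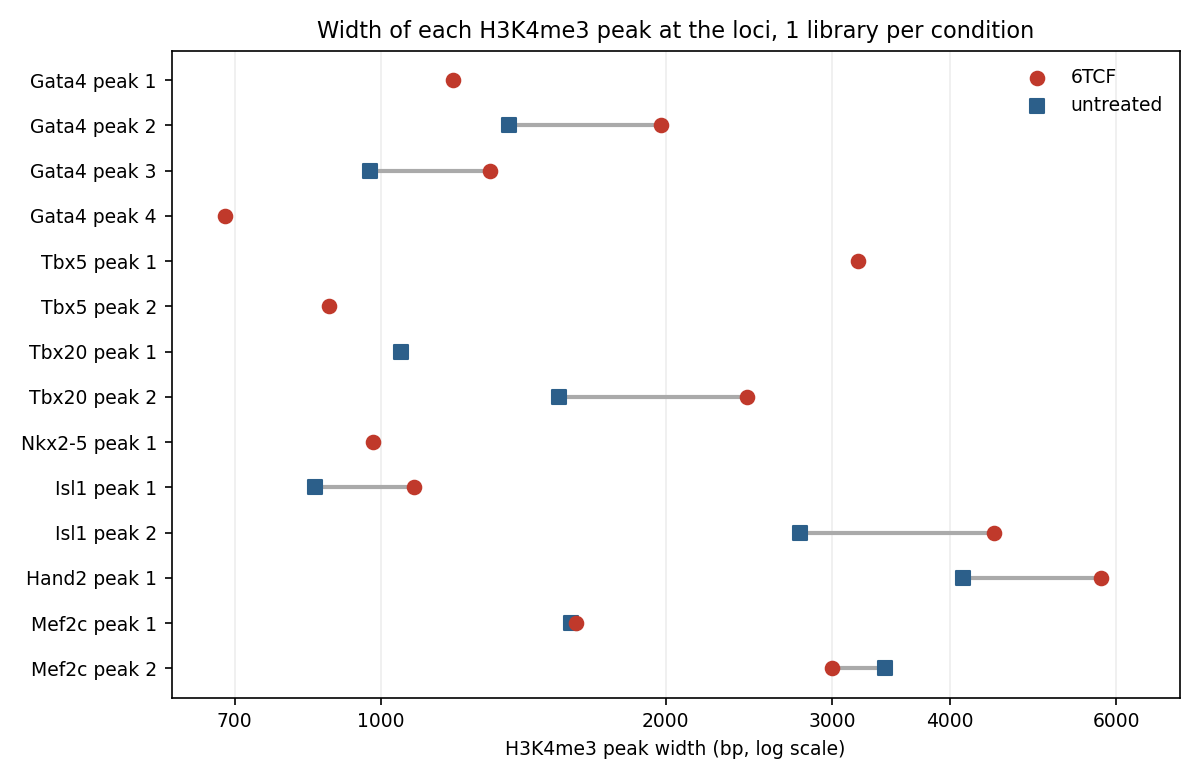
Width in bp on a log scale of each H3K4me3 peak at the loci, with circles for 6TCF-treated and squares for untreated cells, joined where the peaks form a pair. Circles lie to the right of squares in 7 of 8 pairs, the exception being the wider Mef2c peak; 5 peaks have a circle alone and 1, at Tbx20, a square alone.

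Nkx2-5 encodes a homeodomain factor that is among the earliest markers of cardiac progenitors. The window, at 26972000 to 26981000 on chromosome 17, held 1 treated H3K4me3 peak of 980 bp, at 26975910 to 26976889, and no untreated one. The nearest untreated H3K4me3 peak was 9.68 kb away. This treated peak overlapped an untreated input peak of 138 bp, at 26976487 to 26976624. Overlap with an input peak of either condition was found for 0.841% of all treated and 0.880% of all untreated H3K4me3 peaks, and among the 22 at the loci for this one alone. The part of the input signal in the Nkx2-5 peak was not tested. The next peak, 5.25 kb above the window, was shared and 1.41-fold wider in treated cells, at 2083 and 1473 bp.

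Isl1 encodes a LIM-homeodomain factor of the second heart field, the progenitors that add to the growing heart tube. Its window on chromosome 13, 117085000 to 117104000, held 2 H3K4me3 pairs and no peak in 1 list only. The peak at 117097734 to 117102186 was 4453 bp with 6TCF and 2774 bp without. At 1.61-fold this pair had the largest width ratio of the 8, above 96.5% of all pairs. The treated peak reached 527 bp further at the low and 1152 bp further at the high end. RefSeq has Isl1 on the minus strand in GRCm38, and its start was not placed on this peak. The untreated peak was wider than 70.0% and the treated one than 94.6% of its own list. The narrow pair at 117087266 to 117088349 was 1084 bp with 6TCF and 852 bp without, 1.27-fold wider. Here the treated peak ran from 117087266 to 117088349 and the untreated one from 117087830 to 117088681, so the treated peak was offset towards lower coordinates and did not enclose its partner.

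Hand2 encodes a basic helix-loop-helix factor of the right ventricle, limb bud and sympathetic neurons. On chromosome 8, at 59796000 to 59806000, the window held the widest peak of the 7 loci in both conditions. At 59798306 to 59804080 this peak was 5775 bp with 6TCF and 4131 bp without, 1.40-fold wider, and wider than 98.4% and 91.2% of its own list. H3K4me3 covered 57.7% of the window in treated and 41.3% in untreated cells, so a broad domain was listed in untreated cells too. The difference was 577 bp at the low and 1067 bp at the high end. Hand2 also stood in a row of peaks. Within 50 kb of the window each condition listed 5 further peaks. All were paired and all were wider in treated cells, against 46.8% of all pairs in the lists. The ratios were 1.05 to 1.10 in 3 of these 5 flank pairs and 1.36 in the one 3.64 kb below the window. In the last, 4.39 kb above the window, the treated peak, at 59810393 to 59813772, was 3380 bp and the untreated one, at 59812361 to 59813510, was 1150 bp, which is 2.94-fold and mostly at the low end. The pair with the treated peak at 59806749 to 59808483, one of the 3, overlapped an untreated input peak of 140 bp.

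Mef2c encodes a MADS-box factor that drives muscle structural genes and is also active in skeletal muscle, bone, endothelium and neurons. Its window on chromosome 13, 83640000 to 83810000, is the longest, and its peaks lay near the low end. RefSeq has this gene on the plus strand in GRCm38, and its starts were not placed on these peaks. The pair at 83656566 to 83658173 was 1608 bp with 6TCF and 1589 bp without, and its ends differed by 25 and 6 bp. The pair at 83662107 to 83665103 was 2997 bp with 6TCF and 3416 bp without, 1.14-fold wider in untreated cells, where it ended at 83665541. No Mef2c peak was in 1 list only. At this locus no peak was more than 19 bp wider in treated cells, while at each of the other 6 loci a treated peak was either unpaired or at least 1.27-fold wider.

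**Figure D3:**
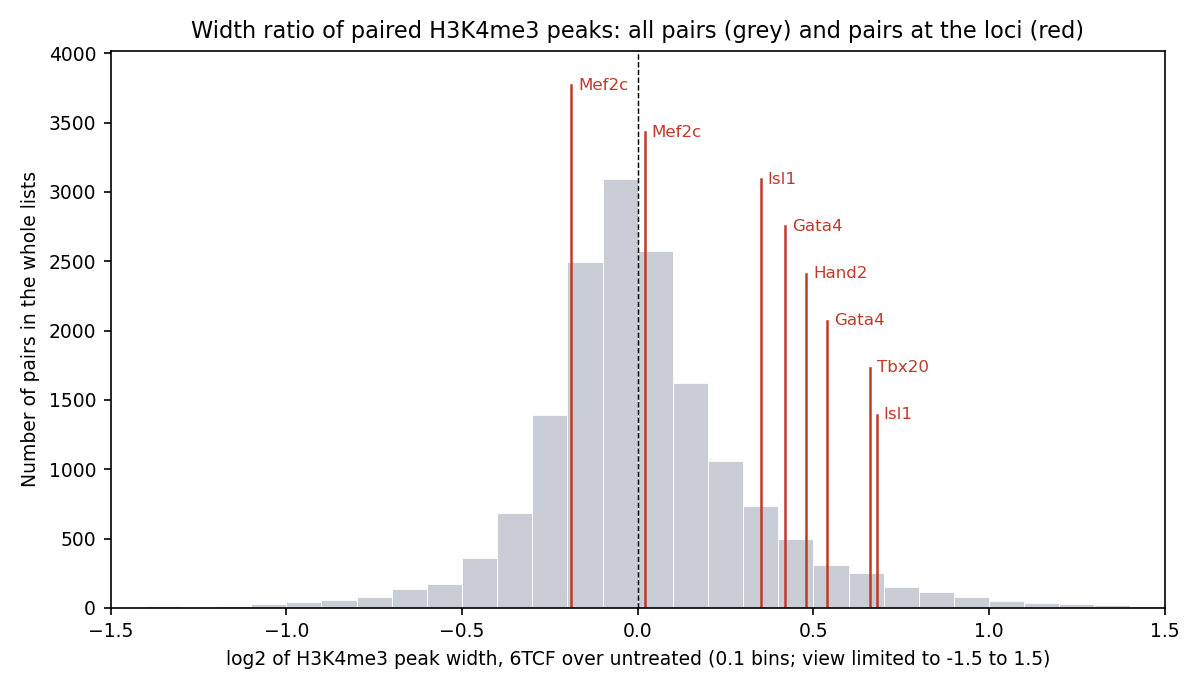
Number of pairs in the whole H3K4me3 lists by log2 of treated over untreated width, as grey bars, with a red line at the value of each pair from the loci (the height of a red line has no meaning). The Mef2c pairs fall in the bulk of the distribution, at 0.02 and -0.19, and the other 6 lie between 0.35 and 0.68.

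For the 8 pairs together, the log2 of treated over untreated width had a median of 0.45, a 1.37-fold difference, and a standard deviation of 0.31 across pairs. Over all pairs the median was -0.02 and the standard deviation 0.33. The pairs at Gata4, Tbx20, Hand2 and Isl1 had ratios above 88.2% to 96.5% of all pairs, while those at Mef2c stood above 56.3% and 19.9%. At least 1.5-fold wider in treated cells were 2 of 8 pairs, those of Tbx20 and the wide Isl1 peak, against 5.03% of all pairs. None was that much wider in untreated cells, against 2.58%, and no pair reached 2-fold in favour of treated or of untreated cells, against 1.13% and 0.520%. In 5 of the 8 pairs the untreated peak lay wholly inside the treated one, against 27.5% of all pairs, and the reverse was found in none, against 30.1%. Of all 16153 pairs, 14340 had a mean width in the range of these 8, 968 to 4953 bp. In that range 45.6% were wider in treated cells and 4.46% were at least 1.5-fold wider. As the range holds most of the list, these shares could hardly differ from those of all pairs. They therefore do not show whether peak width matters.

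Pairs outside the windows were compared in the same way, after the lists had been seen. Within 10 kb of a window there were 6 pairs, all wider in treated cells, with a median log2 ratio of 0.29. No H3K4me3 peak there was in 1 list only. Of all pairs in the lists 46.8% were wider in treated cells, and the median was -0.02. Within 50 kb, the 6 pairs above included, there were 12 pairs, 10 of them wider in treated cells, with a median of 0.12. Of the 14 treated H3K4me3 peaks in this outer flank 2 were treated-only, near the 10.2% of all treated peaks. They were the 1321 bp peak beside Tbx5 and one of 713 bp, 48.7 kb above Nkx2-5. In their width classes 7.45% and 51.1% of treated peaks were treated-only. The flank held 0 untreated-only peaks, against 4.73% of all untreated peaks. Hand2 supplied 3 of the 6 close pairs, and Gata4, Nkx2-5 and Tbx20 supplied 1 each. Of the 12 pairs within 50 kb Hand2 supplied 5, all wider in treated cells. Mef2c had 1 pair in this outer flank, 44.5 kb above its window, at 1615 bp with 6TCF and 831 bp without, a 1.94-fold difference.

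The treated-only peaks were mostly narrow, like such peaks in general. Apart from the 3199 bp peak at Tbx5 they were 683 to 1190 bp wide, and 3 of the 5 were under 1 kb. All 3 treated peaks under 1 kb at the loci were treated-only, in a class where 51.1% of the whole list is. Of the 5 treated peaks over 1 to 2 kb, 1 was treated-only, at Gata4, against 7.45%. Tbx5 supplied the one treated-only peak of 5 that were over 2 to 6 kb, against 0.774%.

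**Figure D4:**
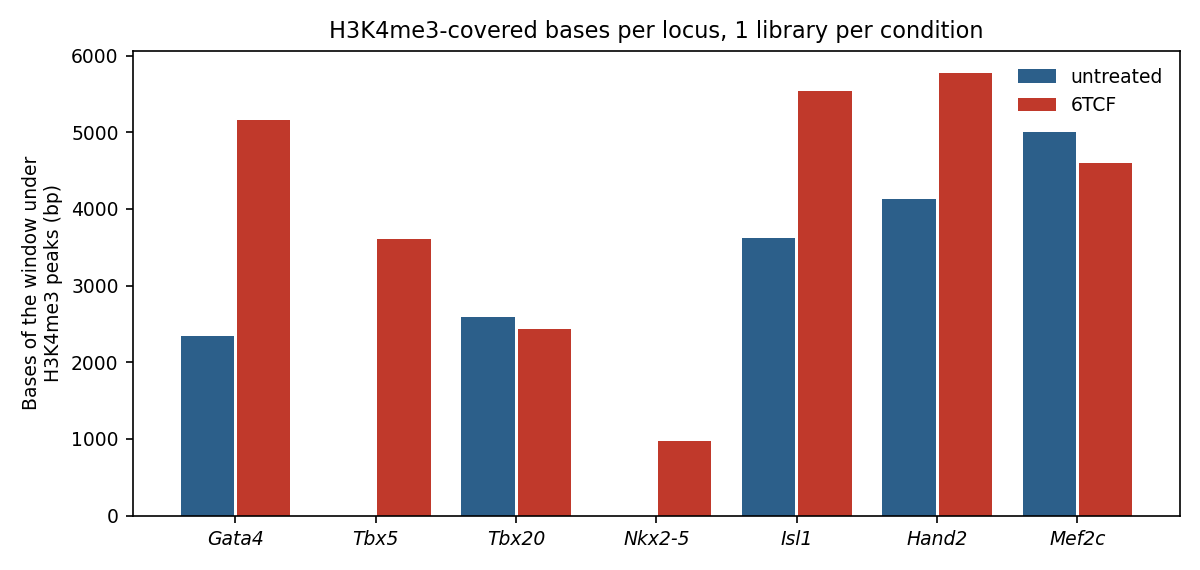
Bases of each window under H3K4me3 peaks, in bp, as bars for untreated and 6TCF-treated cells, with 1 library per condition and no error bars. Gata4, Tbx5, Nkx2-5, Isl1 and Hand2 have more covered bases in treated cells, Tbx20 and Mef2c fewer.

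No H3K27me3 peak was listed at any of the 7 loci in either condition. None lay within 10 kb of a window either, and within 50 kb there were 2, both from untreated cells: 162 bp at a distance of 23.4 kb from Nkx2-5 and 113 bp at 35.3 kb from Tbx5. The nearest treated H3K27me3 peak was 55.7 kb away, beside Mef2c, and 3173 kb away at Isl1. Of all treated H3K4me3 peaks 1.36% overlapped a treated and 3.16% an untreated H3K27me3 peak, and for untreated H3K4me3 peaks the shares were 1.18% and 2.81%. With 22 H3K4me3 peaks at the loci, a count of 0 is near those shares. The median H3K27me3 peak was 149 bp wide with 6TCF and 211.5 bp without, while the sheared chromatin averaged 600 bp. Input peaks had medians of 146 bp with 6TCF and 142 bp without, so the treated H3K27me3 peaks were about as narrow as input peaks. H3K27me3 was not detectable at these loci in these lists, which does not show that it was absent.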

How the data were processed

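The authors deposited a list of peaks for each library, which gives chromosome, start, end and a constant strand sign, and no height, score or p-value. Per the submitters' processing notes, CASAVA 1.7, Bowtie2 2.2.5, MACS 1.4.3, HOMER and mm9 were used; their roles, the calling threshold and the control are not stated there. Starts were raised by 1 to give 1-based positions, on the reading that the lists follow the BED convention. An overlap of 1 bp with the other condition made a peak shared. Width ratios came from peaks that overlap each other alone, and covered bases were taken with peaks trimmed at the window ends. Python 3.11.15, numpy 2.4.6 and matplotlib 3.10.9 were used. Overlap calls were tested on an altered copy of the untreated H3K4me3 list, with peaks removed, widened and added. They were also checked against bedtools 2.31.1 on the H3K4me3 and H3K27me3 lists themselves. All 7 loci and all their peaks are named. The 1.5-fold limit for width stands in for a test. Loci and comparisons were chosen with earlier results of these data known. Lists of marker genes and of other cardiac regulators were not evaluated, for want of mm9 positions. Promoter sequences and gene order are from RefSeq, build GRCm38.p6.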

Additional observations from a re-analysis of the deposited data

How the results depend on the processing

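No paired analysis was possible because each group held 1 library and the labels give no replicate numbers, and no library could be left out. The 5 treated-only peaks stayed 5 when sharing required 50% of the narrower peak or when windows were widened by 10 kb. They became 4 without input-overlapping peaks (Nkx2-5 leaves) and 4 when the widest 17168 peaks of both lists were kept, which removed the 683 bp Gata4 peak. Among peaks of at least 1 kb the count was also 4, but 2 of the 5 were left, the 1190 bp Gata4 and the 3199 bp Tbx5 peak. The other 2 were the 1305 bp Gata4 and 1084 bp Isl1 peaks, whose untreated partners of 973 and 852 bp fell below the limit. Lists of equal length, widened windows for peaks in 1 list only and the 50 kb flank were chosen after seeing the data. The untreated-only count was 1 in every one of these settings. Windows widened by 10 kb held 19 treated and 15 untreated H3K4me3 peaks, against 13 and 9, so the added peaks were as many in both conditions. With windows widened by 50 kb, 2 untreated and 0 treated H3K27me3 peaks were found, against 0 and 0. Longer windows can only keep or raise such counts. At a limit of 2-fold, 0 pairs were wider in treated cells, against 2 at 1.5-fold. The ratio of covered bases was 1.61 with whole peaks, against 1.59, and the median log2 width ratio was 0.45 to 0.47 across pairing and centring. Unknown depth limits every presence call. The widest H3K4me3 peaks in the lists were 9030 bp with 6TCF and 9151 bp without, and whether wider peaks were left out in calling was not tested.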
